A study of Mus musculus with 4 samples.

Results

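The genes of endothelial fatty acid uptake were described in RNA-seq of cultured primary mouse LSECs. They were the genes of the deposited expression table with the symbols Cd36, Fabp4, Fabp5, Lpl, Gpihbp1, Pparg, Plin2 or Angptl4, which gave 8 genes of 18373. The symbol Plin2 stood on 2 entries, so that 9 entries matched. The second carries the gene ID of Gm12551, a transcribed pseudogene by RefSeq, held 0.83 to 5 counts per library, and was not tested.

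The study asked what the lncRNA Airn does in LSECs, the fenestrated endothelial cells that line the hepatic sinusoids. LSECs came from the livers of 8-week-old Balb/c mice without a further genotype, by enzymatic perfusion that the labels give as pronase and collagenase and the methods as collagenase IV, a Nycodenz gradient and CD146 beads. They were cultured for 24 h and then transfected for 48 h. All libraries are labelled as cells at day 3. The NC group (n = 2) received a control siRNA and the siAirn group (n = 2) an siRNA against Airn. The protocol speaks of separate siRNAs, while both sample names read siAirn1, and it is not settled here which siRNA was used in which library. The labels call the samples biological replicates without naming the animals or cultures behind them, so p-values measure the spread between these samples.

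Capillary endothelium takes up fatty acids in steps. LPL, made largely by parenchymal cells, is held on the luminal face of the endothelium by GPIHBP1 and frees fatty acids from triglyceride-rich lipoproteins, and ANGPTL4 is a secreted inhibitor of it. CD36 binds long-chain fatty acids at the cell surface, FABP4 and FABP5 carry them in the cytosol, PPARγ is a nuclear receptor that binds fatty acids and drives many of these genes, and PLIN2 coats the lipid droplets in which surplus is stored.

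The libraries held 17308382 to 18371959 counts, and 13628 genes were tested. The targeted transcript was near the limit of detection. Airn had 7 and 3 counts in the NC libraries and 11 and 9 in the libraries labelled siAirn, where 3 counts are the most that a count of 0 allows. The ratio of its summed depth-scaled counts, siAirn over NC, was 1.97, with a 95% exact binomial interval of 0.88 to 4.71 that covers counting error only, so a lower level of Airn in the libraries labelled siAirn was not seen at this depth. The ratio was 3.37 (1.00 to 17.7) without NC 1 and 1.37 (0.56 to 3.83) without NC 2. Every direction below is that of the labels. LSEC markers, with Oit3 the most abundant, summed to 4134 and 4159 CPM in NC and 2958 and 2671 CPM in the libraries labelled siAirn, so that the labelled cell type was present in all 4.

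The carrier of LPL and both cytosolic fatty acid carriers were lower in the libraries labelled siAirn. Gpihbp1 fell by 55.8% and Fabp4 fell by 42.7%, while Fabp5 fell by 19.4%. Of 13 pan-endothelial markers 9 also fell, with a median log2 fold change of -0.44, and their part in these changes was not tested. Relative to these markers, the log2 ratio of siAirn over NC was -0.69 for Gpihbp1 and -0.31 for Fabp4. That of Fabp5 was 0.19, with groups that overlapped. Cd36, Pparg and Lpl had lower values in both libraries labelled siAirn than in either NC library but did not pass the test, Plin2 overlapped between the groups, and Angptl4 had higher values without passing. In edgeR (quasi-likelihood test, Benjamini-Hochberg adjustment over all genes tested), 3 of the 8 genes were lower and 0 higher at an adjusted p under 0.05, against 8.56% of all genes lower and 8.27% higher. At an unadjusted p under 0.05, 5 were lower and 1, Angptl4, was higher, against 17.2% of all genes lower and 16.8% higher. DESeq2 called 3 lower and 1 higher, against 6.72% of all genes lower and 6.50% higher. Without NC 1 edgeR called 0 of the 8 (4 at an unadjusted p under 0.05) and 35 of all genes, and without NC 2 it called 0 of the 8 (6 at an unadjusted p under 0.05) and 0 of all genes (3075).

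**Figure D1:**
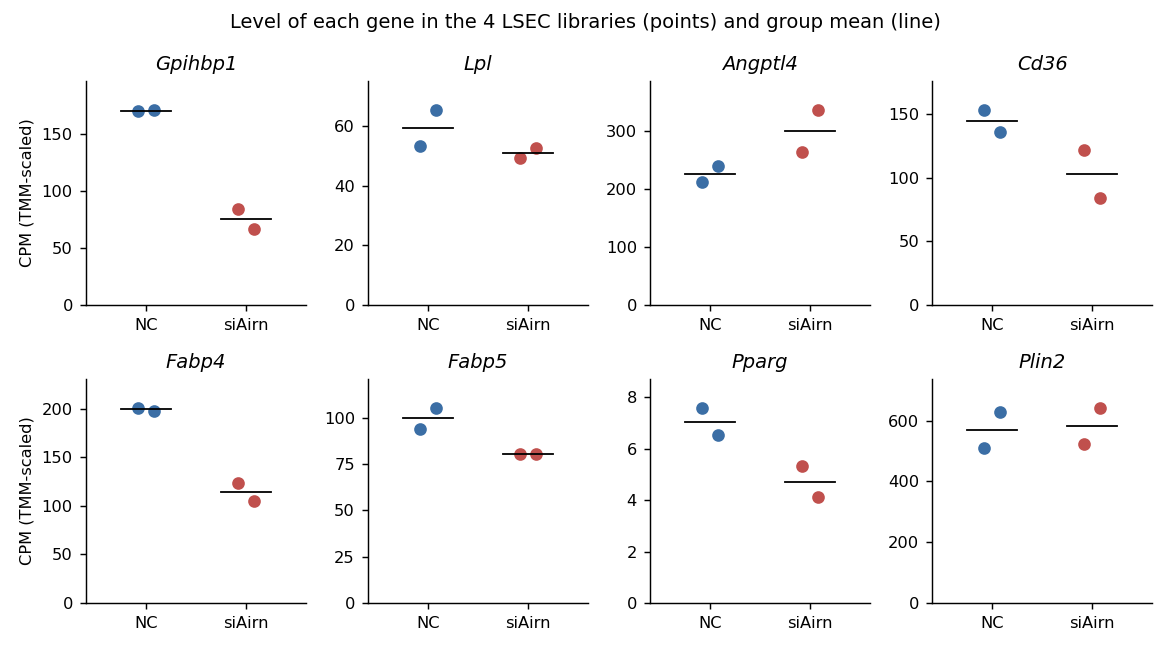
TMM-scaled CPM of each gene, with 1 point per library and a line at the mean of the 2 libraries of a group, on axes from 0. In Gpihbp1 and Fabp4 the NC points lie together, at 170 and 171 CPM and at 201 and 198 CPM, far above those of the libraries labelled siAirn, while in Plin2 the groups overlap.

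Gpihbp1 (gene ID 68453, chromosome 15, 75596630 to 75598213 on the plus strand of GRCm38.p6) encodes the GPI-anchored protein that carries LPL across the endothelial cell and holds it in the lumen. Gene positions here and below are from RefSeq, and strands and transcripts from GENCODE M21. The level of Gpihbp1, in CPM (counts scaled to library size), was 170 and 171 CPM in NC 1 and NC 2 and 84.4 and 66.5 CPM in siAirn 1 and siAirn 2. Both libraries labelled siAirn lay below NC, by far more than the libraries of either group differed. On the log2 scale, siAirn over NC, the change was -1.18 (SE 0.11, n = 2 per group), and the adjusted p was 0.0050 by edgeR's quasi-likelihood test. It was the largest change of the 8 genes. The call was lost without NC 1 or without NC 2, where the adjusted p over all 4 fits that leave out a library reached 0.0869, while the log2 fold change stayed between -1.36 and -1.02.

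Lpl (gene ID 16956, chromosome 8, 68880555 to 68906932, plus strand) encodes the lipase itself. It stood at 53.1 and 65.2 CPM in NC and at 49.2 and 52.6 CPM in the libraries labelled siAirn. The groups did not overlap, but siAirn 2 was only just below NC 1. Its log2 fold change of -0.22 (SE 0.11) had an adjusted p of 0.199 by edgeR's quasi-likelihood test, and the difference in means was smaller than the distance between the NC libraries. The fold change was -0.36 without NC 1 and -0.06 without NC 2. Of its transcript, 4.11% of the 50-base windows also occur in transcripts of other genes, 299 of them.

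Angptl4 (gene ID 57875, chromosome 17, 33774900 to 33781575, minus strand) encodes the secreted inhibitor of LPL and is a known PPAR target. It had 212 and 240 CPM in NC and 265 and 336 CPM in the libraries labelled siAirn. It was the one gene of the 8 with both libraries labelled siAirn above NC, and those libraries differed from each other by 27.1%. Its log2 fold change was 0.41 (SE 0.12), with an adjusted p of 0.0587 and an unadjusted p of 0.011 by edgeR's quasi-likelihood test. Without siAirn 2 it was 0.23, and without siAirn 1 it was 0.57 and was called, with an adjusted p of 0.0029. With all libraries the difference did not pass, and it passed by DESeq2 and by edgeR's likelihood-ratio test.

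Cd36 (gene ID 12491, chromosome 5, 17781690 to 17888959, minus strand) encodes the fatty acid and lipoprotein receptor of the cell surface. It stood at 153 and 136 CPM in NC, and at 121 and 84.2 CPM in the libraries labelled siAirn. The libraries labelled siAirn lay below NC but apart from each other, siAirn 2 being 30.6% below siAirn 1. The fitted log2 fold change was -0.49 (SE 0.16), with an adjusted p of 0.0763 and an unadjusted p of 0.0178 by edgeR's quasi-likelihood test. Cd36 passed by edgeR's likelihood-ratio test (adjusted p 0.0206) but not by DESeq2 (adjusted p 0.240). The size of the fold change rested on which library was kept. Without siAirn 1 it was -0.78 and was called, and without siAirn 2 it was -0.25.

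Fabp4 (gene ID 11770, chromosome 3, 10204342 to 10208616, minus strand) encodes the fatty acid carrier known from adipocytes, macrophages and capillary endothelium. It stood at 201 and 198 CPM in NC, and at 124 and 104 CPM in the libraries labelled siAirn. The NC libraries were nearly equal, and both libraries labelled siAirn lay well below them. A log2 fold change of -0.80 (SE 0.09) was fitted, and the adjusted p was 0.0057 by edgeR's quasi-likelihood test. As in Gpihbp1, the call was lost without NC 1 or without NC 2, with log2 fold changes of -0.93 to -0.69 over the 4 fits that leave out a library and adjusted p up to 0.0922.

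Fabp5 (gene ID 16592, chromosome 3, 10012585 to 10016610, plus strand) encodes the related carrier known from skin and endothelium, and lies on the same chromosome as Fabp4. It had 94.1 and 105 CPM in NC and 80.6 and 80.3 CPM in the libraries labelled siAirn. The libraries labelled siAirn were nearly equal and below both NC libraries, which stood further apart. Fabp5 changed by -0.31 on the log2 scale (SE 0.07), and the adjusted p was 0.0336 by edgeR's quasi-likelihood test. By limma on filtered FPKM it did not pass, with adjusted p of 0.0615 and 0.0627 for pseudocounts of 1 and 0.1. Relative to the pan-endothelial markers, a scale added after seeing the data, its log2 ratio was 0.19 and the groups overlapped. The call was lost in each of the 4 fits that leave out a library, with adjusted p of 0.0584 to 0.183. Fabp5 has near copies in the genome. Of its 50-base windows, 21.1% occur also in Fabp5l2, Gm13998, Gm14328, Gm6100 or Gm6166, so its count is uncertain to the degree that reads were divided among them.

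Pparg (gene ID 19016, chromosome 6, 115360879 to 115490404, plus strand) encodes the nuclear receptor. It was the scarcest of the 8, with 130 and 118 counts in NC and 96 and 73 in the libraries labelled siAirn. These are 7.59 and 6.53 CPM against 5.31 and 4.13 CPM. The groups did not overlap, siAirn 1 lying nearest to NC 2. A log2 fold change of -0.58 (SE 0.20) had an adjusted p of 0.0877 and an unadjusted p of 0.022 by edgeR's quasi-likelihood test.

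Plin2 (gene ID 11520, chromosome 4, 86626910 to 86670217, minus strand) encodes the coat protein of lipid droplets and is a sensitive PPAR target in many cells. It stood at 511 and 629 CPM in NC, and at 524 and 641 CPM in the libraries labelled siAirn. The groups overlapped almost fully, and the libraries numbered 2 were higher than those numbered 1 in both. Its log2 fold change was 0.03 (SE 0.13), with an adjusted p of 0.885 by edgeR's quasi-likelihood test, and it turned to -0.11 without NC 1 and to -0.12 without siAirn 2. Windows shared with the pseudogene Gm12551 made up 4.89% of its transcript.

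Groups without overlap were common in these libraries. Of the 8 genes, 6 had both libraries labelled siAirn below both NC libraries, against 31.9% of all genes tested, and 1 had both above, against 30.9%. The median log2 fold change of the 8 was -0.40, beside 0.00 for all genes, -0.44 for the 13 pan-endothelial markers, -0.58 for the 15 LSEC markers and -0.70 for the 18 macrophage and Kupffer cell markers tested. In 7 of the 8, siAirn 2 lay farther from the NC mean than siAirn 1, and the share of all genes with this order was not computed. With the threshold given in the methods, a fold change over 1.4 with an unadjusted p under 0.05, 4 of the 8 genes were lower (Cd36, Fabp4, Gpihbp1 and Pparg) and 0 were higher. That threshold took in 4.72% of all genes as lower and 5.25% as higher. Fabp5, which passed the adjusted test, falls short of its fold change.

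**Figure D2:**
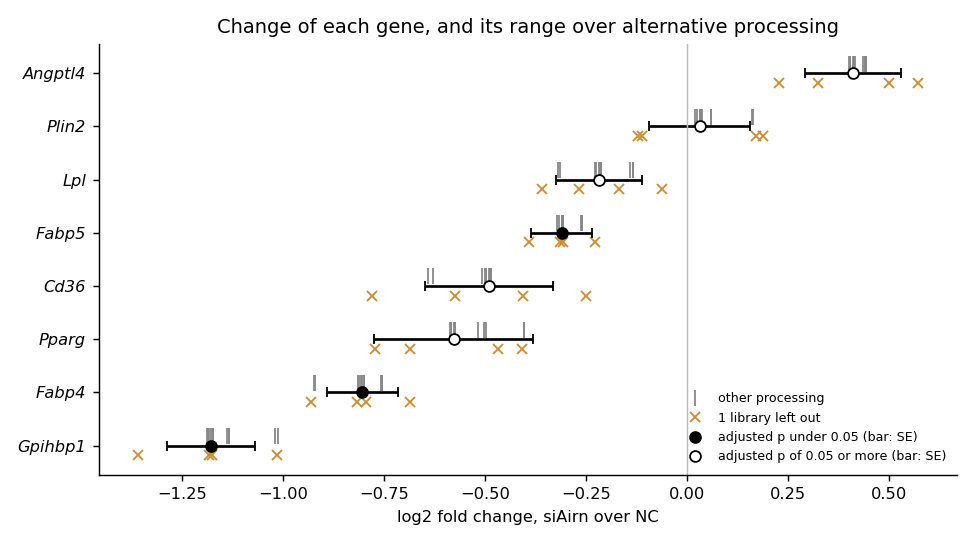
Log2 fold change (siAirn over NC) of each gene, with filled circles for an adjusted p under 0.05, open circles for others and bars of 1 SE. Grey ticks give other processing and crosses the fits that leave out 1 library, which in Plin2 fall on both sides of 0 and in Gpihbp1 stay between -1.36 and -1.02.

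Levels between genes were compared per transcript length, as FPKM. The lengths behind these values are not stated. With other lengths, genes close in the order, such as Fabp4 and Plin2, could change places. In NC, Fabp4 was the most abundant with a mean of 377 FPKM (379 and 374 in the libraries), followed by Plin2 at 315 (283 and 348) and Gpihbp1 at 252 (251 and 252). Angptl4 at 125 (118 and 132) and Fabp5 at 118 (111 and 125) came next, and as neighbours in this order their libraries overlapped. Cd36 followed at 49.3 FPKM (52.1 and 46.5), Lpl at 15.2 (13.8 and 16.6) and Pparg at 3.79 (3.98 and 3.60), and no other neighbours overlapped. Among all genes tested, the mean FPKM of Fabp4 in NC stood at percentile 98.4 and that of Pparg at percentile 31.3.

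In the libraries labelled siAirn the order of these FPKM values changed at its upper end. Plin2 was first at 328 FPKM (296 and 360), above Fabp4 at 224 (245 and 203), and Angptl4 at 171 (151 and 190) stood above Gpihbp1 at 115 (130 and 101). Fabp5 at 98.2 (99.3 and 97.2) lay just below the lower Gpihbp1 library. Cd36 at 35.5 FPKM (42.4 and 28.7), Lpl at 13.7 (12.8 and 14.6) and Pparg at 2.65 (3.07 and 2.22) kept the last places. In both groups the transcript of the receptor was far scarcer than those of the carriers.

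**Figure D3:**
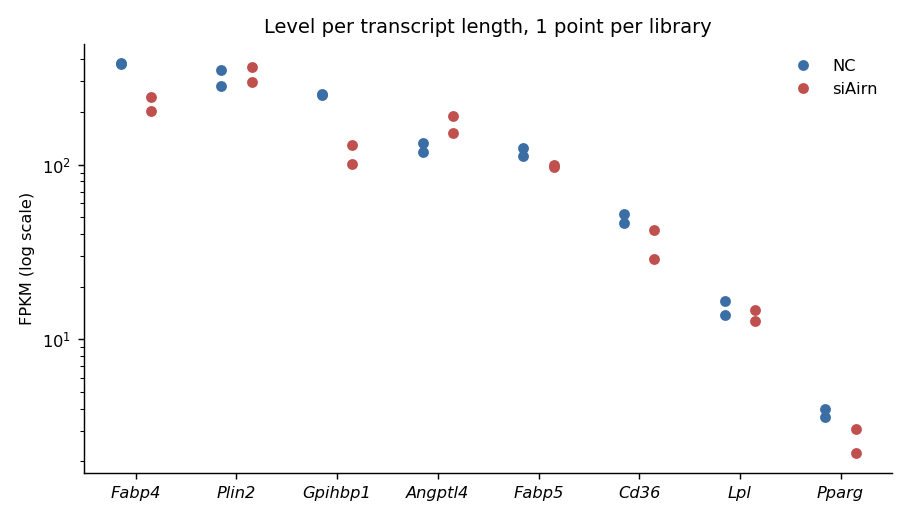
FPKM of the 8 genes on a log scale, with 1 point per library, NC in blue and libraries labelled siAirn in red, ordered by the mean in NC. Fabp4 leads in NC at 377 FPKM, Plin2 leads in the libraries labelled siAirn at 328 FPKM, and Pparg is lowest in both groups.

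Ratios within a library do not depend on its total, and give the balance between the transcripts of partners. Gpihbp1 to Lpl was 18.3 and 15.2 in NC, and 10.2 and 6.88 in the libraries labelled siAirn. Angptl4 to Lpl was 8.56 and 7.99 in NC and 11.9 and 13.0 in the libraries labelled siAirn. Angptl4 to Gpihbp1 was 0.469 and 0.524 in NC and 1.17 and 1.89 in the libraries labelled siAirn. Whether this ratio lies above or below 1 depends on the transcript lengths behind the FPKM values, which are not stated. Between the carriers, Fabp4 to Fabp5 was 3.40 and 3.01 in NC, and 2.47 and 2.09 in the libraries labelled siAirn. Fabp4 to Cd36 was 7.28 and 8.05 in NC and 5.79 and 7.07 in the libraries labelled siAirn, where siAirn 2 lay close to NC 1. The groups did not overlap in these ratios, each of which holds Gpihbp1, Fabp4 or Angptl4, whose own levels did not overlap either. The ratios were not tested, and the share of such ratios among other genes was not computed.

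**Figure D4:**
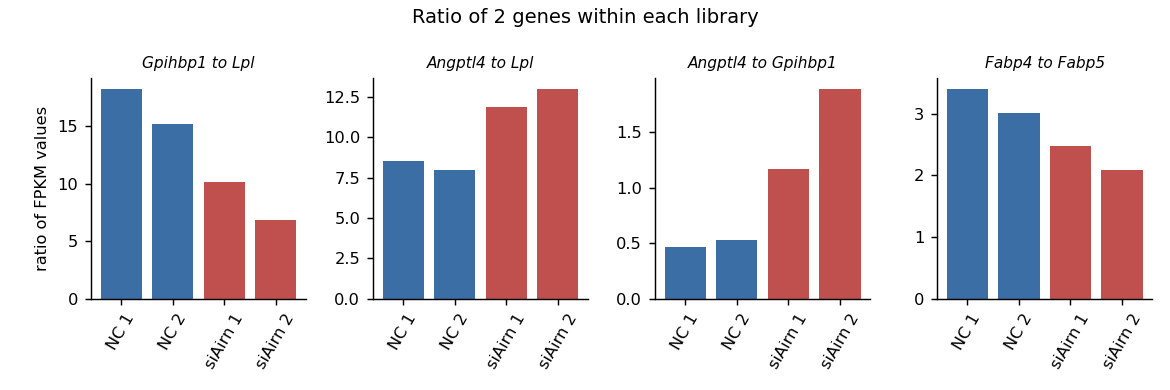
Ratio of the FPKM values of 2 genes within each library, with bars that start at 0, NC in blue and libraries labelled siAirn in red. Angptl4 to Gpihbp1 is below 1 in both NC libraries (0.469 and 0.524) and above 1 in both libraries labelled siAirn (1.17 and 1.89). Its place relative to 1 depends on the transcript lengths behind the FPKM values.

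The cell type markers moved in the same comparison, and their part in these results was not tested. Of the 13 pan-endothelial markers, 9 fell and 0 rose, and they summed to 12621 and 11893 CPM in NC and 9274 and 8081 CPM in the libraries labelled siAirn, with Eng the most abundant. In bulk RNA, fewer endothelial cells and less RNA of these genes per cell cannot be told apart. Of the 15 LSEC markers, 11 fell and 1 rose. Values relative to 1000 CPM of pan-endothelial markers were an addition made after seeing the data. Gpihbp1 had 13.5 and 14.4 CPM in NC and 9.10 and 8.22 CPM in the libraries labelled siAirn. Fabp4 had 15.9 and 16.6 against 13.3 and 12.9 CPM, and the groups overlapped in neither gene. On this scale Fabp5 overlapped, at 7.46 and 8.86 against 8.70 and 9.93 CPM, and so did Cd36, Lpl and Pparg. Angptl4 lay above NC at 28.5 and 41.6 against 16.8 and 20.2 CPM, and so did Plin2 at 56.5 and 79.4 against 40.5 and 52.9 CPM. Since the marker sum was lower in the libraries labelled siAirn, this scale raises every gene in them. The share of all genes that lie above NC on it was not computed.

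Several of these genes are also known from macrophages, stellate cells, hepatocytes or adipocytes. Of the 20 macrophage and Kupffer cell markers, 18 were tested, of which 11 fell and 0 rose, and the list summed to 354 and 419 CPM in NC and 263 and 213 CPM in the libraries labelled siAirn, with Lyz2 the most abundant. Hepatocyte markers, led by Alb, summed to 640 and 808 CPM in NC and 898 and 1167 CPM in the libraries labelled siAirn, with 2 of the 12 tested higher and 0 lower. Stellate cell and fibroblast markers, led by Vim, summed to 3239 and 3330 against 3586 and 4017 CPM, with 4 of 15 higher and 0 lower. Vim, which endothelial cells also express, made up 1432 and 1136 CPM of that sum in NC and 1480 and 1292 CPM in the libraries labelled siAirn. Capillary markers, led by Angpt2, summed to 4038 and 3787 against 3650 and 3369 CPM, with 1 higher and 1 lower of 10 tested. Lymphocyte markers, led by Cd3e, summed to 4.50 and 3.87 against 5.87 and 6.34 CPM, with 0 called of 3 tested. In these lists, 0 pan-endothelial or macrophage markers were higher and 0 hepatocyte or stellate cell markers lower, also at an unadjusted p under 0.05 and by DESeq2, while 2 lymphocyte markers were higher at an unadjusted p under 0.05 and 0 by DESeq2. The adipocyte markers were near 0. Adipoq and Retn each had 0 counts in 3 libraries and 1 in siAirn 2. Lipe, which is not limited to adipocytes, made up most of the list's sum of 11.1 to 16.1 CPM. The cells from which the RNA of the 8 genes came were not tested.

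The rest of the pathway was read from 5 lists of 117 genes, of which 115 were measured and 91 tested. By the same test 5 rose and 11 fell, which is 17.6% of those tested, close to the 16.8% of all genes. Their median log2 fold change was -0.05. Of the 15 tested genes of fatty acid transport and activation, 1 rose and 3 fell. Acsl4, an acyl-CoA synthetase that prefers arachidonic acid, rose by 0.41 on the log2 scale (SE 0.06, adjusted p 0.0116 by edgeR's quasi-likelihood test), from 91.6 and 94.4 to 121 and 127 CPM. Scarb1, the HDL receptor SR-BI, fell by 0.36 (SE 0.06, adjusted p 0.0145), from 155 and 162 to 121 and 125 CPM. Acsl5, another acyl-CoA synthetase, fell by 0.33, from 168 and 164 to 132 and 133 CPM. The third gene that fell, the fatty acid carrier Fabp7, is below the level set for naming and was added after its values were seen (2.22 and 3.82 against 1.05 and 1.13 CPM). Fabp3, the heart carrier, had 0 counts in all 4 libraries, and Fabp1 and Fabp2 were too low to test.

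Among 18 tested genes of lipoprotein lipolysis and uptake, 1 rose and 2 fell. Lrp1, the large endocytic receptor for remnants, rose by 0.54 (SE 0.12, adjusted p 0.0277), from 118 and 119 to 149 and 196 CPM. Lipa, the lysosomal acid lipase, fell by 0.33, from 161 and 150 to 128 and 120 CPM. The groups did not overlap in either gene. The LPL maturation factors Lmf1 and Sel1l had log2 fold changes of -0.10 and 0.04 with adjusted p of 0.621 and 0.661.

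Of 17 tested regulators, 1 fell and 0 rose by edgeR's adjusted p, and 0 were higher at an unadjusted p under 0.05 or by DESeq2. Vegfb, the growth factor linked to endothelial fatty acid transport, fell by 0.46 (SE 0.08, adjusted p 0.0172), from 56.2 and 57.1 to 43.8 and 38.5 CPM. Its receptors Flt1 and Nrp1 overlapped between groups, at log2 fold changes of -0.03 and 0.13. The other PPAR receptors did not pass either. Ppard had a log2 fold change of -0.19 (adjusted p 0.097) with lower values in both libraries labelled siAirn, and Ppara stood at 1.23 to 1.88 CPM in the 4 libraries. The partner receptor Rxra had a log2 fold change of -0.10 (adjusted p 0.276). Meox2, Tcf15 and Rxrg, 3 further regulators, were too low to test.

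Of 23 tested PPAR target and fatty acid oxidation genes, 2 rose and 3 fell, and counting those that did not pass, 18 had a log2 fold change below 0 and 5 above, with a median of -0.11. Ucp2, a mitochondrial carrier of the inner membrane, fell by 0.75 (SE 0.08, adjusted p 0.0050), from 274 and 284 to 175 and 156 CPM. Acads, the short-chain acyl-CoA dehydrogenase, fell by 0.35, from 32.7 and 35.6 to 26.7 and 27.0 CPM. Pdk4, the kinase that restrains pyruvate dehydrogenase and a known PPAR target, rose by 0.31 (SE 0.08, adjusted p 0.0357), from 87.1 and 93.0 to 106 and 117 CPM. Cpt1a, which admits long-chain fatty acids to mitochondria, overlapped with a log2 fold change of -0.02. The other called genes were below the level set for naming and were added after their values were seen. Cyp4a14 had 0.584 and 0.498 against 1.77 and 1.98 CPM, and Acadvl had 11.3 and 3.37 against 0 and 0.283 CPM, with NC libraries that stood far apart.

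Among 18 tested lipid droplet genes, 1 rose and 2 fell. Gpat3, an acyltransferase of triglyceride synthesis, rose by 0.78 (SE 0.15, adjusted p 0.0179), from 11.6 and 13.9 to 19.6 and 24.2 CPM. The lipases Mgll and Pnpla2 fell by 0.63 (adjusted p 0.0050) and by 0.38 (adjusted p 0.0140). Mgll went from 201 and 199 to 131 and 127 CPM, and Pnpla2 from 164 and 163 to 130 and 121 CPM. The Pnpla2 co-activator Abhd5 had a log2 fold change of -0.21 (adjusted p 0.0553), with lower values in both libraries labelled siAirn, and the coat protein gene Plin3 one of -0.24 (adjusted p 0.0664).

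**Figure D5:**
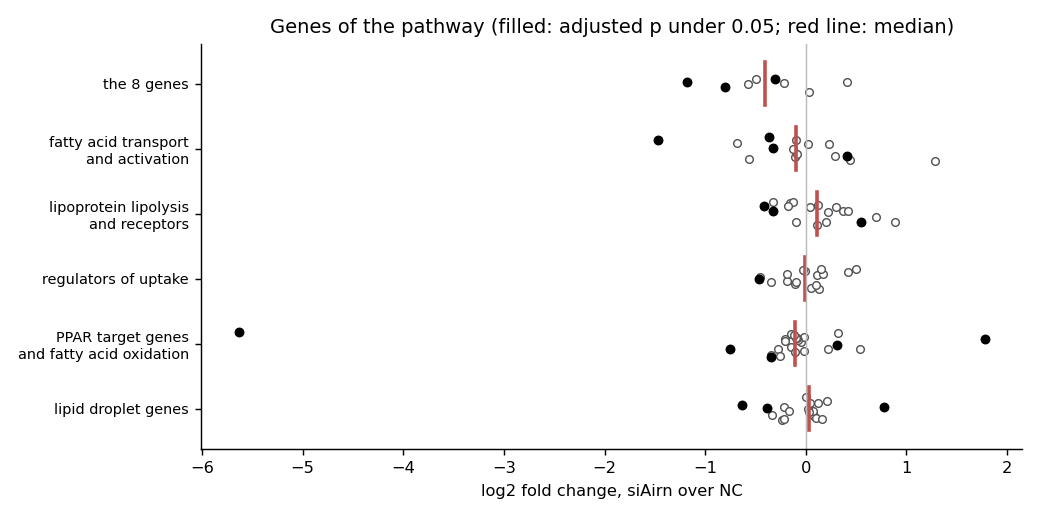
Log2 fold change (siAirn over NC) of each tested gene of the 8 and of the 5 pathway lists, with filled circles for an adjusted p under 0.05 and a red line at the median. The median of the 8 genes is -0.40 and those of the lists lie near 0, from -0.11 to 0.12, with Acadvl far to the left at -5.63, a fitted value that rests on a library with 0 counts.

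Gene profiles closest to those of the 3 called genes were sought over the 4 libraries among the 10481 genes whose mean level reached 5 CPM, as the Euclidean distance between log2 CPM centred on their mean. Closest to Gpihbp1 were Dnase1l3 (0.0967), Efcc1 (0.106) and Bace2 (0.128), of which Dnase1l3, a secreted DNase, is among the LSEC markers. Closest to Fabp4 were Cd59a (0.0415), Cracr2b (0.0563) and Abi3 (0.0617). Closest to Fabp5 were Cox5b (0.00762), Tmem173 (0.0130) and Ifitm3 (0.0138). With 4 libraries many genes share a profile, and the likeness is a description.

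PPARγ binds repeats of the hexamer AGGTCA. Promoter windows of 250 bases before to 50 after the start of a transcript were matched in RefSeq (GRCm38.p6) for 3 of the 8 genes, Cd36, Pparg and Plin2, in 5 windows. The hexamer was found in 4 of the 5 windows, on either strand, and in 16.3% of all 32851 promoter windows of the table. Windows are shown for these genes, the receptor gene and its known targets Cd36 and Plin2, because the others of the 8 had none in the promoter set used. By the test above 0 of these 3 genes were called at an adjusted p under 0.05, while Cd36 and Pparg had an unadjusted p under 0.05. Each is read 5′ to 3′ along the gene, and capitals mark the hexamer or its reverse complement. They are those of Cd36 (chr5:17835847-17836146, minus strand), Plin2 (chr4:86670010-86670309, minus strand) and Pparg (chr6:115360894-115361193, plus strand).
Cd36: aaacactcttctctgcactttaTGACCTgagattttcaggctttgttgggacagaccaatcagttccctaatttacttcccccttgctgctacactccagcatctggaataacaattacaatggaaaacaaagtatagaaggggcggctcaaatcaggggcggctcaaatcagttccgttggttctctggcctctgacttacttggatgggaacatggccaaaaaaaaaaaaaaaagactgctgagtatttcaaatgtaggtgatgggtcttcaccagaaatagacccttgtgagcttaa
Plin2: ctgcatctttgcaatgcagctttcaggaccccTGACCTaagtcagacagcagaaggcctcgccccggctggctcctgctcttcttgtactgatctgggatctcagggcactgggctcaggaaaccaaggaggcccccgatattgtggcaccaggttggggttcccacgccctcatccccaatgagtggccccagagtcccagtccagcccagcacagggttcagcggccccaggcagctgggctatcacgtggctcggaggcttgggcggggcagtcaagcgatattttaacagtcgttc
Pparg: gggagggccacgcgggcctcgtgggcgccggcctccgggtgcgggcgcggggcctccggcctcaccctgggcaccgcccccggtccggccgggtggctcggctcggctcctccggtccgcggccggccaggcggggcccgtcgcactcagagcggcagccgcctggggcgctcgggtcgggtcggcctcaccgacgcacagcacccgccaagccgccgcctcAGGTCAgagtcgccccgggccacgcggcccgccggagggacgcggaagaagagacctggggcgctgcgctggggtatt

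In Cd36 and Plin2 the hexamer lies on the opposite strand, at positions -228 and -218 from the start site. In the Pparg window shown it lies on the gene's strand at -28, and in a second window, not shown, at -9. The DR1 element to which PPARγ binds together with RXR, the hexamer repeated in the same direction with 1 base between the copies, was in 0.0396% of all windows and in none of these 5. A looser form built from AGGNCA was in 0.381% of all windows and likewise in none of these 5. All motifs were searched on both strands, and each copy within a DR1 element also counts as a hexamer. A match to these letters is a description of the sequence, and their absence from a window says only that the letters are not there.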

How the data were processed

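RNA-seq of primary mouse LSECs was read from 4 libraries, 2 of NC and 2 of siAirn, grouped by the labels. The authors deposited estimated counts, of which 76.5% to 76.8% are whole numbers, and values read as FPKM from the deposited table, whose header names no unit. Group means deposited by the authors were not used. The submitters' processing notes name RSEM, Bowtie2, BWA and hg19, a human build, and the mouse build is not given in the sources used here. Whether counting used strand is not stated either.

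Counts were rounded and tested in edgeR 4.0.16 (R 4.3.3) by the quasi-likelihood test, with TMM factors (0.985 to 1.02), the filterByExpr filter, no covariate, and Benjamini-Hochberg adjustment over 13628 genes. Calls are at an adjusted p under 0.05. CPM are TMM-scaled. In these libraries 3 counts are 0.166 to 0.175 CPM. The scripts were tested on simulated data.

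The genes, the lists and the alternatives were chosen with earlier results of these data known. The text names the 8 genes, Airn, the most abundant marker of each cell type list, the 3 nearest profiles of each called gene, and from each pathway list up to 3 genes called higher and up to 3 called lower with a mean of at least 5 CPM and no overlap. Other pathway genes were named after their values were seen, and 1 gene that the rule covers is not reported here. Alternatives were upper-quartile scaling, DESeq2 1.42.0, the likelihood-ratio test, other count filters, limma 3.58.1 on log2(FPKM + 1) and log2(FPKM + 0.1), a replicate block, a correction for GC content and length, and leaving out each library.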

Additional observations from a re-analysis of the deposited data

How the results depend on the processing

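With the 3 genes called as the starting point, the same number was called with upper-quartile scaling, with either other count filter and with the correction for GC content and length. Of all genes, 16.8% were called at first, 18.4% and 11.4% with the stricter and the looser filter and 7.95% with the correction. DESeq2 called 4 (13.2% of all genes), limma on filtered FPKM 2 with a pseudocount of 1 or 0.1 (14.9% and 15.0%), and the likelihood-ratio test of edgeR 5 (23.0%). With no filter, limma on log2(FPKM + 1) called 0 of the 8, 0 of the pathway genes and 0 of all genes (4, 32 and 4418 at an unadjusted p under 0.05). Of the pathway genes, 16 at first, 10 were called with the correction for GC content and length and 10 with the threshold of the methods. Leaving out each library gave 0 to 4 called of the 8 genes and 0 to 19 of the pathway, where the lone library of a group is assumed to vary like the other group. Both were 0 without NC 1 and without NC 2, where 23 and 21 pathway genes had an unadjusted p under 0.05. Plin2 ranged from -0.12 to 0.19 over these fits on the log2 scale, and the log2 ratio of Airn from 0.45 to 1.75. Relative to the pan-endothelial markers, added after seeing the data, Fabp5 and Lpl turned to log2 ratios of 0.19 and 0.29. The marker sum was lower in the libraries labelled siAirn, which raises every gene in them on that scale. On that scale Gpihbp1 was at -0.69, Fabp4 at -0.31, Pparg at -0.09 and Cd36 at -0.003, while Plin2 was at 0.54 and Angptl4 at 0.92. Gpihbp1 and Fabp4 kept their direction, though not their size, in every fit run.

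The replicate numbers were not shown to pair the libraries. Over 13628 genes the deviations of NC 1 and siAirn 1 from their group means had a correlation of 0.233. With a replicate block, 7 of the 8 genes (all but Plin2) and 37 pathway genes were called, beside 35.5% of all genes, and with the block and the correction for GC content and length 8 and 38, beside 31.7% of all genes. Log2 fold changes followed GC content (Spearman -0.333) and length (0.364) across 12948 genes, which are not independent replicates, and with the correction Gpihbp1 was at -1.01, Fabp4 at -0.92 and Cd36 at -0.63. The order of levels per length was the same as TPM. That TPM was built from the lengths implied by the FPKM values, so it could not test the order. With 2 libraries per group, depth limits Airn, which had 3 to 11 counts per library. Of the 8 genes, Pparg had the fewest counts, at 73 to 130 per library.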
